A study of Mus musculus with 16 samples.

Results

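The 10 genes described here take glucose into the cell and carry it through glycolysis to lactate: the transporters Slc2a1 and Slc2a3, the hexokinases Hk1 and Hk2, the phosphofructokinases Pfkp and Pfkm, phosphoglycerate kinase Pgk1, enolase Eno2 and the lactate dehydrogenases Ldha and Ldhb. They were taken by gene symbol from tables of 24411 genes, in which all 10 had an entry and all 10 passed the filter on low counts. The tables hold 16 mouse RNA-Seq libraries in 5 groups, made to ask how the MYCN transgene and the loss of 1 copy of Runx1t1 bear on neuroblastoma. In the Th-MYCN mouse, human MYCN is driven by a tyrosine hydroxylase promoter in the sympathetic lineage, and the Runx1t1 knock-out allele came from a separate mouse line. Celiac ganglia at 2 weeks of age made up 4 groups: 4 without the transgene and with wild-type Runx1t1, 3 without the transgene and labelled Runx1t1 heterozygote (het), 3 from Th-MYCN homozygotes with wild-type Runx1t1 and 2 from Th-MYCN homozygotes labelled Runx1t1 het. The last group held 4 tumors from Th-MYCN homozygotes with wild-type Runx1t1, for which the labels give no age.

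Glycolysis turns glucose into pyruvate in the cytosol. Glucose enters through facilitated transporters, is trapped by hexokinase and is committed to the pathway by phosphofructokinase. Phosphoglycerate kinase gives the first return of ATP, enolase forms phosphoenolpyruvate, and lactate dehydrogenase interconverts pyruvate and lactate. Most of these steps can be run by several isoforms. Slc2a3, Hk1, Pfkp and Eno2 are the forms best known from neurons, Hk2 is the inducible hexokinase of muscle, fat and many tumors, and Ldha and Ldhb encode the M and H subunits of the lactate dehydrogenase tetramer. Genes of glycolysis are among the best known targets of the MYC family and of the hypoxia inducible factors.

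MYC family proteins bind the E-box CACGTG, and hypoxia inducible factors bind sites with the core ACGTG. The 250 bases before each RefSeq start site (GRCm38.p6) were searched for both letter strings on both strands, with ACGTG counted only where it was not part of CACGTG. Of the 10 genes, 9 had an entry, with 14 start sites in all. CACGTG was found in 2 of these 14 windows, in Ldha and Pfkm, against 6.02% of all 32851 windows of this length. ACGTG was found in 5 of the 14, in Slc2a1, Hk2, Pfkm, Pgk1 and Ldha, against 11.4% of all windows. The windows of the lactate dehydrogenase pair (for Ldha, that of its first start site), whose RNA moved apart in tumors, and of Hk2 and Pgk1, each of which held 2 ACGTG motifs, are given 5′ to 3′ along each gene with the motifs in capitals. A match of letters is a description and not a measured binding site.
Ldha, chr7:46845554-46845803, plus strand: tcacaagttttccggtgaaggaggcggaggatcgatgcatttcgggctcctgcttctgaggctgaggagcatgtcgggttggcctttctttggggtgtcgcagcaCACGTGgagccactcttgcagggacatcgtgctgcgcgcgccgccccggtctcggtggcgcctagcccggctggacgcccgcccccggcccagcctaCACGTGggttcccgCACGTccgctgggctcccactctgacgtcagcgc
Ldhb, chr6:142507958-142508207, minus strand: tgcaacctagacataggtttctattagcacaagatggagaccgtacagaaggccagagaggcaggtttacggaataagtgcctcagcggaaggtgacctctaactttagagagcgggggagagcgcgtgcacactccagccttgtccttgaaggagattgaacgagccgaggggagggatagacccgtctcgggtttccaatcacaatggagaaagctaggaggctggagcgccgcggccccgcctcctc
Hk2, chr6:82774455-82774704, minus strand: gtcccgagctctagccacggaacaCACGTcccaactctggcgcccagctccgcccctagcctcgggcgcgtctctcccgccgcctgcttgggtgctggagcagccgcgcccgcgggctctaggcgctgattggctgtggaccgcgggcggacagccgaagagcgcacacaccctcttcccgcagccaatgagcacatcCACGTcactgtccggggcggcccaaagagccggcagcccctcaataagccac
Pgk1, chrX:106186850-106187099, plus strand: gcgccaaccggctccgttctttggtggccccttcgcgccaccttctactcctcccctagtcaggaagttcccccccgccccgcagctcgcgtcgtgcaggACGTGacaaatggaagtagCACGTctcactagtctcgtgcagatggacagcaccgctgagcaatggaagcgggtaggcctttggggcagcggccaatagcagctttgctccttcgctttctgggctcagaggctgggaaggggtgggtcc

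In this window of Ldha, CACGTG began 145 and 48 bases before the start site and ACGTG 34 bases before it. The window of the other Ldha start site (chr7:46846832-46847081), which is not printed, and the Ldhb window held neither. In Pfkm, CACGTG lay 136 bases before the first of its start sites. CACGT in capitals is ACGTG read on the other strand.

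Depth ran from 10692291 to 38618760 counts per library, and 6 of the ganglia but no tumor held under 20000000. The ribosomal RNA gene Rn45s took 8.57% to 12.8% of counts in tumors, 8.80% in replicate 1 of the Runx1t1 wild-type MYCN ganglia and 2.15% to 5.64% in the other 11 ganglia. The lowest count of any of the 10 genes in a library was 85. Runx1t1 itself was at 4.36 to 6.28 TPM (length-normalized transcript abundance) in ganglia without MYCN labelled het and at 2.78 to 4.41 TPM in those with wild-type Runx1t1, and at 8.83 and 16.9 TPM in MYCN ganglia labelled het against 7.90 to 70.3 TPM with wild-type Runx1t1, so its RNA did not check the het labels. The 12 sympathetic neuron markers were detected in every library, and their summed level was 6320 to 17451 TPM in ganglia and 2760 to 4853 TPM in tumors. The 8 glia and Schwann cell markers summed to 487 to 2004 TPM in ganglia and 13.8 to 21.4 TPM in tumors. Some libraries stood apart: replicate 2 of the ganglia without MYCN and with wild-type Runx1t1 held lymphocyte markers at 779 TPM, against 8.19 TPM or less elsewhere, replicate 3 of the Runx1t1 wild-type MYCN ganglia held fat markers at 2991 TPM, and tumor replicate 3 held the liver gene Alb at 2497 TPM. In bulk tissue, fewer cells of a type and less RNA per cell cannot be told apart. Nothing in the labels says that replicates came from separate animals, so p-values measure the spread between these samples.

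Per transcript length, the ganglia carried high levels of 8 of the 10 RNAs and low levels of the other 2. Over the 12 ganglia the mean was 417 ± 99.9 TPM (SD, n = 12) for Ldha, 393 ± 128 for Hk1, 383 ± 90.5 for Pgk1, 310 ± 113 for Eno2 and 266 ± 99.0 for Pfkp. Ldhb followed with 226 ± 85.5 TPM, Slc2a3 with 204 ± 69.8 TPM and Pfkm with 144 ± 45.4 TPM, and neighbours in this order differed by less than the larger of their SDs. Slc2a1, at 36.3 ± 11.1 TPM, and Hk2, at 8.77 ± 7.14 TPM, stood clearly below. In the 4 tumors the order was another: Ldha led with 511 ± 128 TPM (SD, n = 4), followed by Pgk1 with 147 ± 21.6 TPM and Hk1 with 60.1 ± 8.61 TPM, and Eno2 was last with 11.2 ± 11.2 TPM. Every other tumor mean lay between 14.4 TPM (Slc2a1) and 50.2 TPM (Pfkp).

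**Figure D1:**
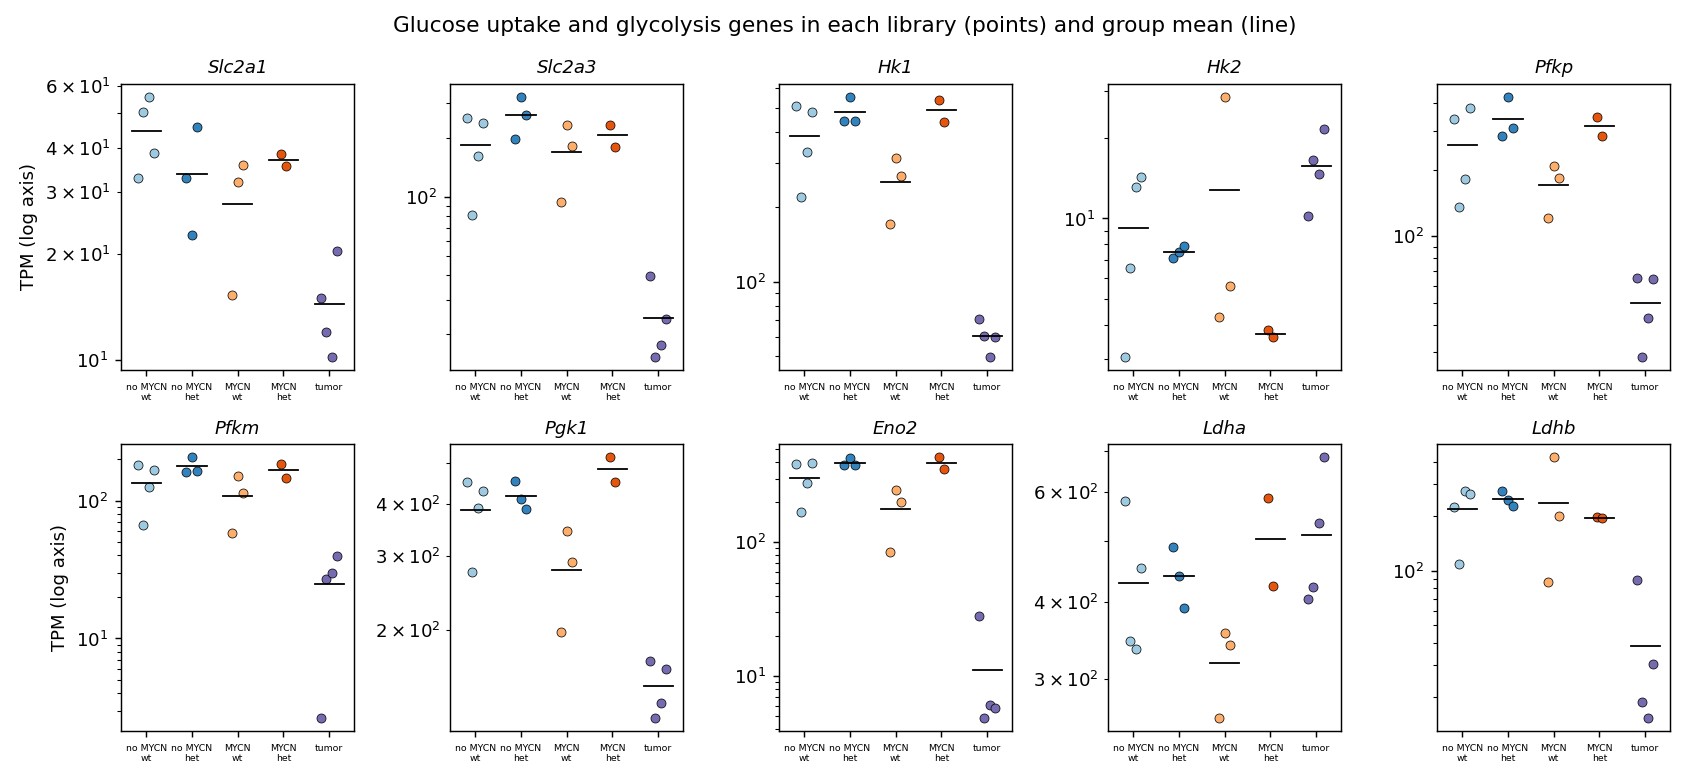
TPM on a log axis of each of the 10 genes in each of the 16 libraries (points) with the group mean (line); wt and het give the Runx1t1 genotype of the ganglia. For Slc2a3, Hk1, Pfkp, Pfkm, Pgk1 and Eno2 every tumor lies below every ganglion, while Ldha in tumors (405 to 683 TPM) overlaps the ganglia (260 to 587 TPM).

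The first comparison asked how tumors (n = 4) differed from ganglia without the transgene (n = 7). In edgeR's quasi-likelihood test over 16665 genes, with Benjamini-Hochberg adjustment, all 10 genes passed the threshold of 0.05, 8 lower and 2 higher in tumors. Of all genes tested, 30.9% were lower and 30.6% higher. The median log2 fold change of the 10 genes was −2.14, against −0.06 over all genes. In TPM, 6 of the 10 were lower in every tumor than in every one of the 12 ganglia, as were 24.5% of all genes tested. None of the 10 was higher in every tumor than in every ganglion, against 6.06% of all genes.

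Both transporters fell. Slc2a3, the high-affinity neuronal glucose transporter GLUT3, ran from 81.1 to 325 TPM in ganglia without MYCN with a median of 240 TPM. It was at 94.3, 233 and 181 TPM in Runx1t1 wild-type MYCN ganglia and at 234 and 180 TPM in those labelled het, and at 39.7, 15.3, 17.6 and 24.1 TPM in the 4 tumors. Every tumor was thus well below every ganglion. The log2 fold change against ganglia without MYCN was −2.74 ± 0.36 (SE; adjusted p = 2.14e-05, edgeR), a 6.69-fold lower level. Slc2a1, the widespread basal transporter GLUT1 (chromosome 4 of GRCm38, 119108711 to 119137983), was at 22.7 to 55.8 TPM with a median of 38.7 TPM in ganglia without MYCN, and at 15.0, 12.0, 10.2 and 20.3 TPM in tumors. Its log2 fold change was −0.99 ± 0.27 (SE; adjusted p = 0.00543, edgeR). An antisense gene overlaps exons of Slc2a1, and reads of both cannot be told apart because the use of strand in counting is not given in the sources used here. Slc2a3 made up 61.6% to 93.5% of the summed TPM of both transporters in the 12 ganglia and 54.3% to 72.6% in tumors. These ranges overlapped. The sum of both transporters fell from a mean of 240 ± 68.8 TPM (SD, n = 12) to 38.5 ± 13.4 TPM (SD, n = 4).

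The hexokinases moved apart. Hk1 (chromosome 10 of GRCm38, 62268855 to 62379908), the hexokinase that predominates in brain, was at 219 to 554 TPM with a median of 444 TPM in ganglia without MYCN. It was at 171, 314 and 266 TPM in Runx1t1 wild-type MYCN ganglia, at 538 and 438 TPM in those labelled het, and at 70.7, 60.4, 49.6 and 59.8 TPM in tumors. No tumor came near a ganglion. The log2 fold change was −2.40 ± 0.23 (SE; adjusted p = 2.04e-06, edgeR), or 5.27-fold lower. The antisense gene Hk1os overlaps exons of Hk1, and with the use of strand not given, reads of both cannot be told apart.

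Hk2 (chromosome 6 of GRCm38, 82725025 to 82774454) was at 3.04 to 14.2 TPM with a median of 7.47 TPM in ganglia without MYCN. It was at 4.31, 28.5 and 5.61 TPM in Runx1t1 wild-type MYCN ganglia, at 3.83 and 3.62 TPM in those labelled het, and at 10.2, 16.5, 14.6 and 21.6 TPM in tumors. The tumors lay high, but 1 ganglion lay above them all. The log2 fold change against ganglia without MYCN was 1.36 ± 0.46 (SE; adjusted p = 0.0193, edgeR). The call was lost with a term for library depth (log2 fold change 0.95, adjusted p = 0.0819, edgeR), without tumor replicate 4 (1.16, 0.0640) and in limma on log2(TPM + 1) (0.89, 0.0970). Hk2 was highest among the ganglia where fat markers were: the 3 ganglia with the highest Hk2 (28.5, 14.2 and 13.2 TPM) held fat markers at 2991, 1427 and 1895 TPM. The 5 fat markers summed to 60.6 to 217 TPM in the tumors. The part of fat in the Hk2 values was not tested. Hk2 made up 12.6% to 26.6% of the TPM of Hk1 and Hk2 in tumors, against 0.593% to 8.30% in the 12 ganglia, and the groups did not overlap.

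Both phosphofructokinases of the list fell. Pfkp (platelet type) was at 136 to 427 TPM with a median of 307 TPM in ganglia without MYCN and at 65.2, 28.5, 42.9 and 64.1 TPM in tumors, a log2 fold change of −2.12 ± 0.31 (SE; adjusted p = 4.47e-05, edgeR). Pfkm (muscle type) was at 67.0 to 206 TPM with a median of 165 TPM, and at 2.65, 26.8, 30.0 and 39.7 TPM in tumors (−2.20 ± 0.53, adjusted p = 0.00238, edgeR), or −2.99 in limma on log2(TPM + 1). Tumor replicate 1 stood out, with 104 counts of Pfkm against 1230 to 2163 in the other tumors. The third isoform, Pfkl (liver type), which is not among the 10 genes, had a log2 fold change of 0.82 ± 0.20 (SE; adjusted p = 0.00224, edgeR). Of the summed TPM of the 3 isoforms, Pfkl made up 7.35% to 14.1% in the ganglia and 36.4% to 51.3% in tumors, while Pfkp went from 50.4% to 63.6% in ganglia down to 29.1% to 46.8% in tumors. The sum itself was 451 ± 149 TPM (SD, n = 12) in ganglia and 131 ± 27.3 TPM (SD, n = 4) in tumors. Exons of Pfkp overlap those of Pitrm1, and exons of Pfkm those of Senp1 and Gm26513, so reads of these genes are uncertain.

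Of the later steps, Pgk1 (chromosome X of GRCm38, 106187100 to 106203699) was at 275 to 453 TPM with a median of 411 TPM in ganglia without MYCN and at 169, 124, 134 and 162 TPM in tumors. Every tumor was lower than every ganglion, and the level was 2.01-fold lower (SE 0.15 on the log2 scale, adjusted p = 6.47e-05, edgeR). Eno2, the neuron-specific enolase (chromosome 6 of GRCm38, 124760053 to 124769673), was at 168 to 431 TPM with a median of 379 TPM in ganglia without MYCN. It was at 84.0, 247 and 202 TPM in Runx1t1 wild-type MYCN ganglia, at 432 and 351 TPM in those labelled het, and at 28.0, 4.87, 6.12 and 5.77 TPM in tumors. Its log2 fold change of −4.54 ± 0.55 (SE; adjusted p = 1.17e-05, edgeR), or 23.2-fold lower, was the largest of the 10. Without tumor replicate 1, which had the highest Eno2 of the tumors, it was −5.55. Eno2 made up 17.8% to 38.1% of the summed TPM of Eno1, Eno2 and Eno3 in the ganglia and 1.00% to 4.89% in tumors. Eno1, the widespread enolase, had a log2 fold change of −0.13 ± 0.19 (SE; adjusted p = 0.577, edgeR), but its value is uncertain because it shares reads with the near copy Eno1b.

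The lactate dehydrogenases moved apart as the hexokinases did. Ldha (chromosome 7 of GRCm38, 46841475 to 46855627) was at 335 to 582 TPM with a median of 439 TPM in ganglia without MYCN. It was at 260, 355 and 341 TPM in Runx1t1 wild-type MYCN ganglia, at 587 and 424 TPM in those labelled het, and at 405, 422, 536 and 683 TPM in tumors. In TPM the tumors overlapped the ganglia. On the scale of TMM-normalized counts Ldha was higher in tumors, by a log2 fold change of 0.68 ± 0.18 (SE; adjusted p = 0.00404, edgeR), or 1.60-fold. In limma on log2(TPM + 1) the value was 0.22 (adjusted p = 0.324), on a scale where the median of all genes was −0.35. Processed pseudogenes of Ldha exist, and reads shared with them make its level less certain.

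Ldhb (chromosome 6 of GRCm38, 142490249 to 142507957) was at 109 to 275 TPM with a median of 246 TPM in ganglia without MYCN. It was at 86.7, 421 and 201 TPM in Runx1t1 wild-type MYCN ganglia, at 197 and 194 TPM in those labelled het, and at 89.0, 18.8, 15.4 and 30.5 TPM in tumors. The last 3 tumors lay far below all ganglia, and replicate 1 lay just above the lowest ganglion. The log2 fold change was −2.16 ± 0.51 (SE; adjusted p = 0.00225, edgeR), and −3.00 without tumor replicate 1. Ldha thus made up 82.0%, 95.7%, 97.2% and 95.7% of the TPM of the pair in the 4 tumors, against 45.7% to 76.0% in the 12 ganglia, and the groups did not overlap. The sum of the pair changed little by comparison, from 643 ± 142 TPM (SD, n = 12) in ganglia to 550 ± 118 TPM (SD, n = 4) in tumors.

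**Figure D2:**
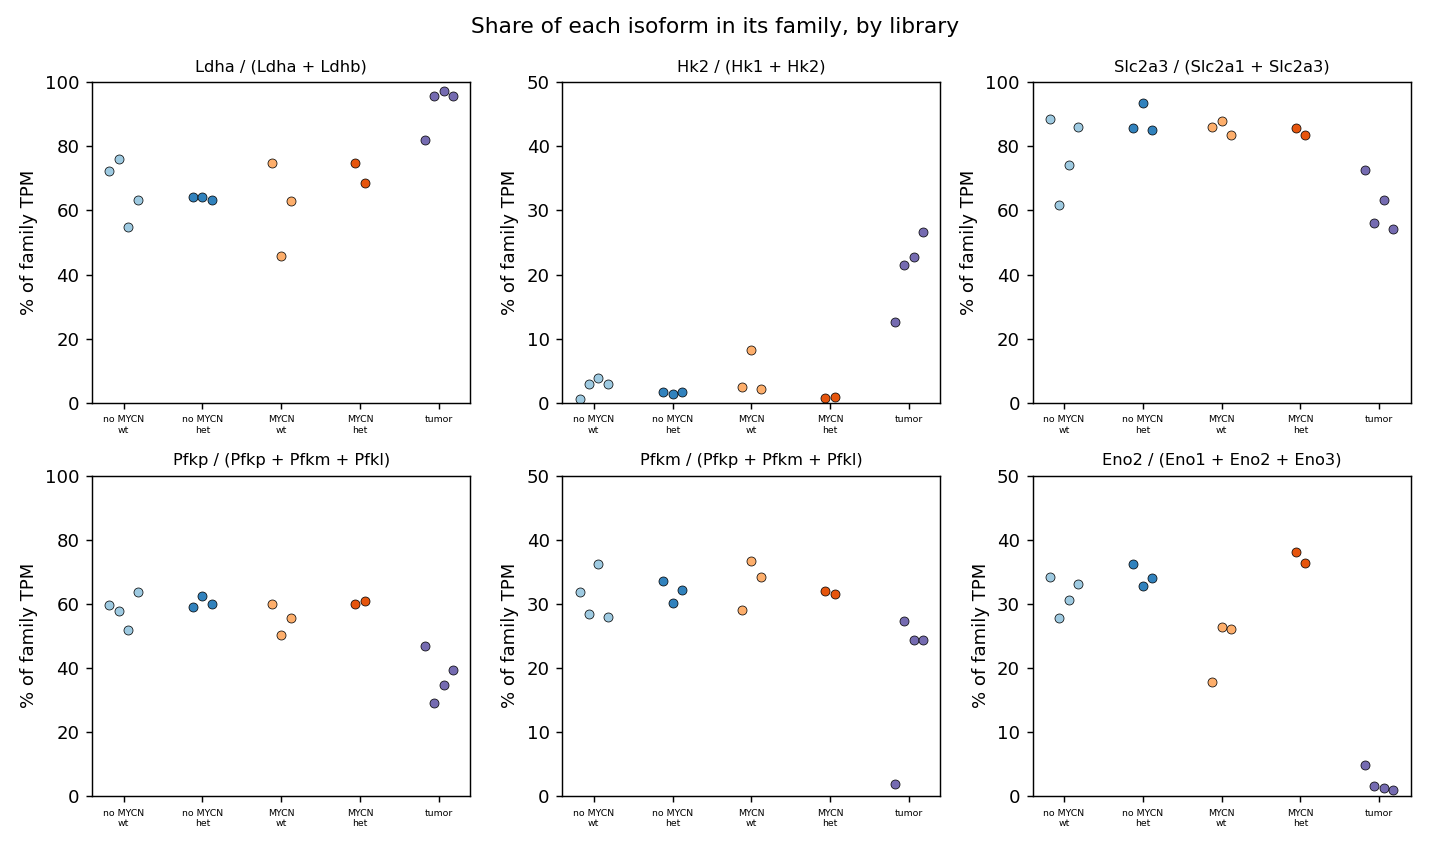
Share of each isoform in the summed TPM of its family, in percent, in each of the 16 libraries, with groups as in the plot of TPM by library; the upper end of the axis is 100% or 50%. Tumors lie above all ganglia for Ldha and Hk2 and below all ganglia for Pfkp, Pfkm and Eno2, and tumor replicate 1 has the lowest share of Pfkm, 1.90%.

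Sympathetic neuron and glia markers moved with these changes. Against ganglia without MYCN, 8 of 12 neuron markers were lower and 3 higher in tumors (median log2 fold change −1.46), and all 8 glia markers were lower (median −5.42). All 6 fibroblast markers were lower as well (median −3.40) and all 6 markers of proliferating cells were higher (median 4.97). Of the other lists, 6 of 7 skeletal muscle markers (median −3.30), 5 of 8 endothelium markers (−1.61), 4 of 5 adrenal cortex markers (−4.90), 2 of 5 fat markers (−1.53) and 1 of 6 lymphocyte markers (−3.63) were lower, and 4 of 8 myeloid markers (1.64) and 1 of 3 chromaffin cell markers (0.90) were higher. The lymphocyte markers summed to 779 TPM in replicate 2 of the Runx1t1 wild-type ganglia without MYCN. They summed to 1.19 to 4.86 TPM in the other ganglia without MYCN and to 1.85 to 8.19 TPM in tumors. The 8 glia markers were detected in every tumor except 1 marker in replicate 3. The part of these cell types in the result was not tested.

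Tumors were next compared with MYCN ganglia, which carry the transgene but are not tumors. Against those with wild-type Runx1t1 (n = 3), 8 of the 10 genes passed the threshold, 7 lower and 1 higher, where 20.5% of all genes were lower and 14.0% higher. The median of the 10 was −1.51, and that of all genes −0.01. Eno2 was 12.0-fold lower (−3.59 ± 0.56, adjusted p = 0.000401, edgeR; −4.60 without tumor replicate 1), Slc2a3 5.27-fold (−2.40 ± 0.39, adjusted p = 0.000522, edgeR) and Hk1 3.15-fold (−1.66 ± 0.25, adjusted p = 0.000280, edgeR). Pfkp, Pfkm, Pgk1 and Ldhb were at −1.37, −1.70, −0.51 and −2.20 (adjusted p = 0.00711, 0.0350, 0.0370 and 0.00915, edgeR), and Ldhb at −3.04 without tumor replicate 1. Ldha was 2.11-fold higher (1.08 ± 0.22, adjusted p = 0.00235, edgeR), and every tumor was above each of these 3 ganglia. Slc2a1 (−0.53 ± 0.31, adjusted p = 0.205, edgeR) and Hk2 (0.72 ± 0.58, adjusted p = 0.356, edgeR) did not pass.

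The Hk2 value turned on 1 ganglion, the one with the highest fat markers, whose part in it was not tested. When replicate 3 of these ganglia was left out, Hk2 was at 2.03 (adjusted p = 0.0122, edgeR), whereas Pfkm (−1.41, adjusted p = 0.138), Pgk1 (−0.36, 0.195) and Ldhb (−1.51, 0.0753) no longer passed. Pfkm and Pgk1 were also lost without replicate 4 of these ganglia (adjusted p = 0.0793 and 0.0918, edgeR), without tumor replicate 2 (0.0607 and 0.0943) and without tumor replicate 3 (0.0538 and 0.0910), and Pgk1 without Rn45s (0.0601). With only the compared groups in the fit, 5 of the 10 genes passed, and Pfkm (0.118), Pgk1 (0.0778) and Ldhb (0.0561) did not. In limma on log2(TPM + 1), Pfkm was at −2.42 (adjusted p = 0.0105). Slc2a1 passed there and on log2(TPM + 0.1), at −0.85 and −0.89 (adjusted p = 0.0456 and 0.0420, limma).

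Against MYCN ganglia labelled Runx1t1 het (n = 2), 8 of the 10 genes passed again, 7 lower and 1 higher, with 23.5% of all genes lower and 22.0% higher. The median of the 10 was −2.01, against 0.07 over all genes. Eno2 was 25.3-fold lower (−4.66 ± 0.61, adjusted p = 6.17e-05, edgeR; −5.67 without tumor replicate 1), Slc2a3 6.09-fold (−2.61 ± 0.42, adjusted p = 0.000294, edgeR), Hk1 5.77-fold (−2.53 ± 0.27, adjusted p = 1.15e-05, edgeR) and Pgk1 2.32-fold (−1.21 ± 0.20, adjusted p = 0.000273, edgeR). Pfkp, Pfkm and Ldhb were at −2.16, −2.25 and −1.85 (adjusted p = 0.000414, 0.00999 and 0.0248, edgeR). Ldhb was at −2.69 without tumor replicate 1, and did not pass without tumor replicate 2, 3 or 4 (adjusted p = 0.0578, 0.0516 and 0.0560, edgeR) or with only the compared groups in the fit (0.0637), where Pfkm did not pass either (0.0617). Hk2 was 5.92-fold higher (2.57 ± 0.74, adjusted p = 0.0122, edgeR), with all 4 tumors above both ganglia. Slc2a1 (−0.86 ± 0.35, adjusted p = 0.0561, edgeR) and Ldha (0.52 ± 0.25, adjusted p = 0.105, edgeR) did not pass. Slc2a1 passed in 9 of the 11 alternatives that kept every library, among them DESeq2 (−0.88, adjusted p = 0.0351) and edgeR with only the compared groups (−0.88, 0.0401), and its adjusted p ran from 0.00603 to 0.0703 over the 11. With 1 library left out it passed in 2 of 16 fits (0.0242 to 0.213). Both ganglia labelled het held under 20000000 counts. With a term for depth, Hk2 was at 1.48 (adjusted p = 0.115, edgeR). Without replicate 1 or 2 of these ganglia 5 or 6 of the genes passed, the lone ganglion being assumed to vary like the other groups, and Hk2 (adjusted p = 0.0918 or 0.0810, edgeR) and Ldhb (0.0931 or 0.0899) did not pass either time, nor did Pfkm without replicate 1 (0.0687). With Rn45s, whose share was higher in tumors than in 11 of the 12 ganglia, left out of the counts, 10, 7 and 8 of the 10 genes passed in the 3 tumor comparisons, against 10, 8 and 8 with it.

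**Figure D3:**
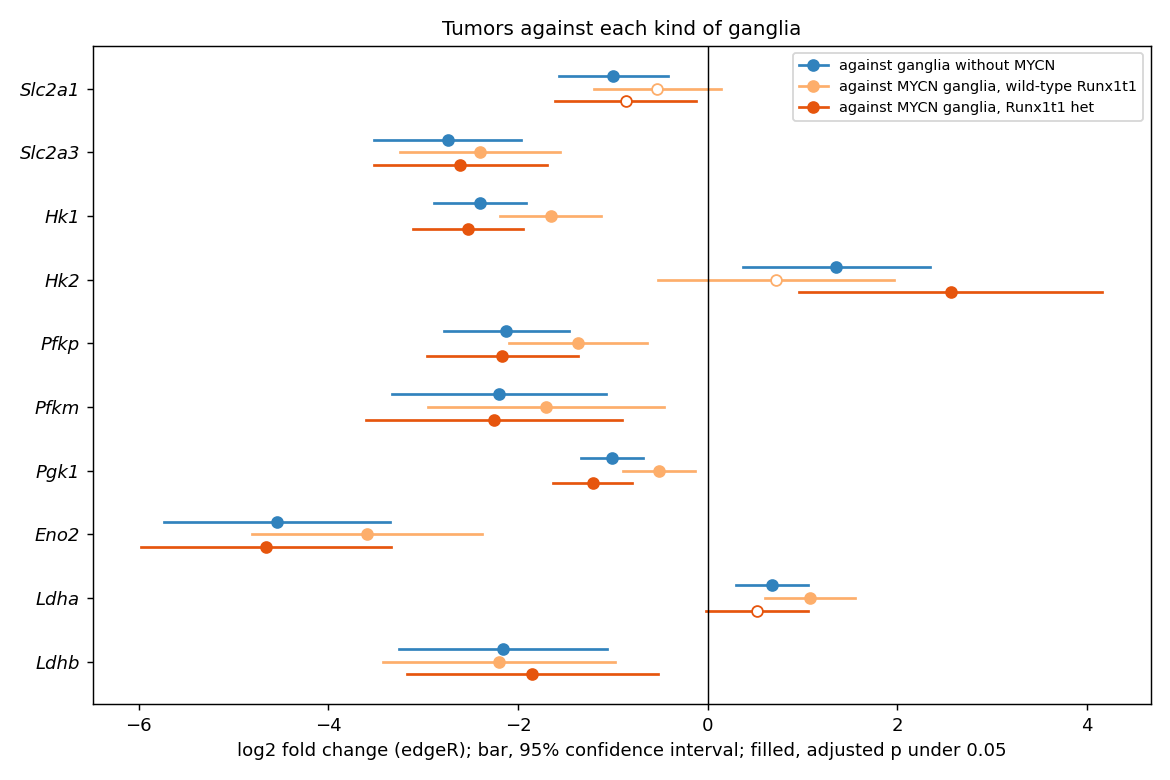
Log2 fold change of each of the 10 genes in tumors against each kind of ganglia (points) with its 95% confidence interval (bars) from edgeR; filled points passed the threshold of 0.05 on the adjusted p. Slc2a3, Hk1, Pfkp, Pfkm, Pgk1, Eno2 and Ldhb were lower in all 3 comparisons, which share the same 4 tumors, and the intervals of Slc2a1 and Hk2 (against Runx1t1 wild-type MYCN ganglia) and Ldha (against those labelled het) reach past 0.

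Among the ganglia, the question was whether the transgene or the Runx1t1 genotype changed these genes outside tumors. None of the 10 genes passed in edgeR, DESeq2 or limma in any of these comparisons. For MYCN against no MYCN with wild-type Runx1t1 (3 against 4 ganglia), 0.936% of all genes passed, and 2 of the 10 genes had an unadjusted p under 0.05 in edgeR, as did 3302 of all 16665 genes. These were Hk1 (log2 fold change −0.59 ± 0.25, adjusted p = 0.215) and Pgk1 (−0.44 ± 0.18, adjusted p = 0.198). The values of the 10 genes ran from −0.77 (Eno2) to 0.48 (Hk2), and in TPM the groups overlapped for each of them. When replicate 3 of the MYCN group was left out, Hk2 was at −0.83 (adjusted p = 0.261, edgeR). Replicate 1 of these MYCN ganglia had the lowest level of Slc2a1, Hk1, Pfkp, Pfkm, Pgk1, Eno2, Ldha and Ldhb of all 12 ganglia, and its markers of proliferating cells summed to 1054 TPM, against 61.7 to 566 TPM in the other ganglia.

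For MYCN against no MYCN in ganglia labelled het (2 against 3), 0% of all genes passed (242 genes at an unadjusted p under 0.05) and none of the 10 genes was under 0.05 unadjusted. The 10 values ran from −1.05 (Hk2) to 0.16 (Pgk1). Hk2 was nonetheless lower in both MYCN ganglia, at 3.83 and 3.62 TPM, than in the 3 without MYCN, at 7.14, 7.47 and 7.87 TPM (−1.05 ± 0.71, adjusted p = 1.00, edgeR). Ldhb was likewise lower in both (197 and 194 against 226 to 274 TPM), and for the other 8 genes the groups overlapped.

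In MYCN ganglia, those labelled Runx1t1 het (n = 2) were compared with those with wild-type Runx1t1 (n = 3), where 0.0120% of all genes passed. Hk1, Hk2, Pgk1 and Ldha had an unadjusted p under 0.05, as did 2094 of all 16665 genes, and none passed after adjustment. Pgk1 was at 515 and 450 TPM in ganglia labelled het and at 198, 345 and 291 TPM with wild-type Runx1t1 (0.70 ± 0.21, adjusted p = 0.295, edgeR). Hk1 was at 0.87 ± 0.29 (adjusted p = 0.315, edgeR), Ldha at 0.56 ± 0.26 (0.393), Eno2 at 1.07 ± 0.63 (0.494) and Pfkp at 0.80 ± 0.40 (0.420), and for each of these genes both ganglia labelled het were above all 3 with wild-type Runx1t1. Hk2 went the other way, at −1.84 ± 0.74 (adjusted p = 0.359, edgeR), and at −0.54 without replicate 3 of the wild-type group. The sympathetic neuron markers summed to 14735 and 17079 TPM in the ganglia labelled het and to 7810, 12129 and 10676 TPM with wild-type Runx1t1. Markers of proliferating cells summed to 84.6 and 225 TPM in the ganglia labelled het and to 1054, 110 and 566 TPM with wild-type Runx1t1. Rn45s took 3.06% and 2.79% of counts in the former and 8.80%, 4.61% and 4.92% in the latter. The part of these markers and of Rn45s in the values was not tested.

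In ganglia without MYCN, Runx1t1 het against wild-type gave 0% of all genes past the threshold (687 at an unadjusted p under 0.05) and none of the 10 genes under 0.05 unadjusted, with values from −0.44 (Slc2a1) to 0.50 (Slc2a3). The interaction of MYCN with Runx1t1 genotype gave 0% of all genes (937 at an unadjusted p under 0.05). Of the 10 genes, Pgk1 was at an unadjusted p of 0.0461 from edgeR (0.61 ± 0.28, adjusted p = 0.845).

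**Figure D4:**
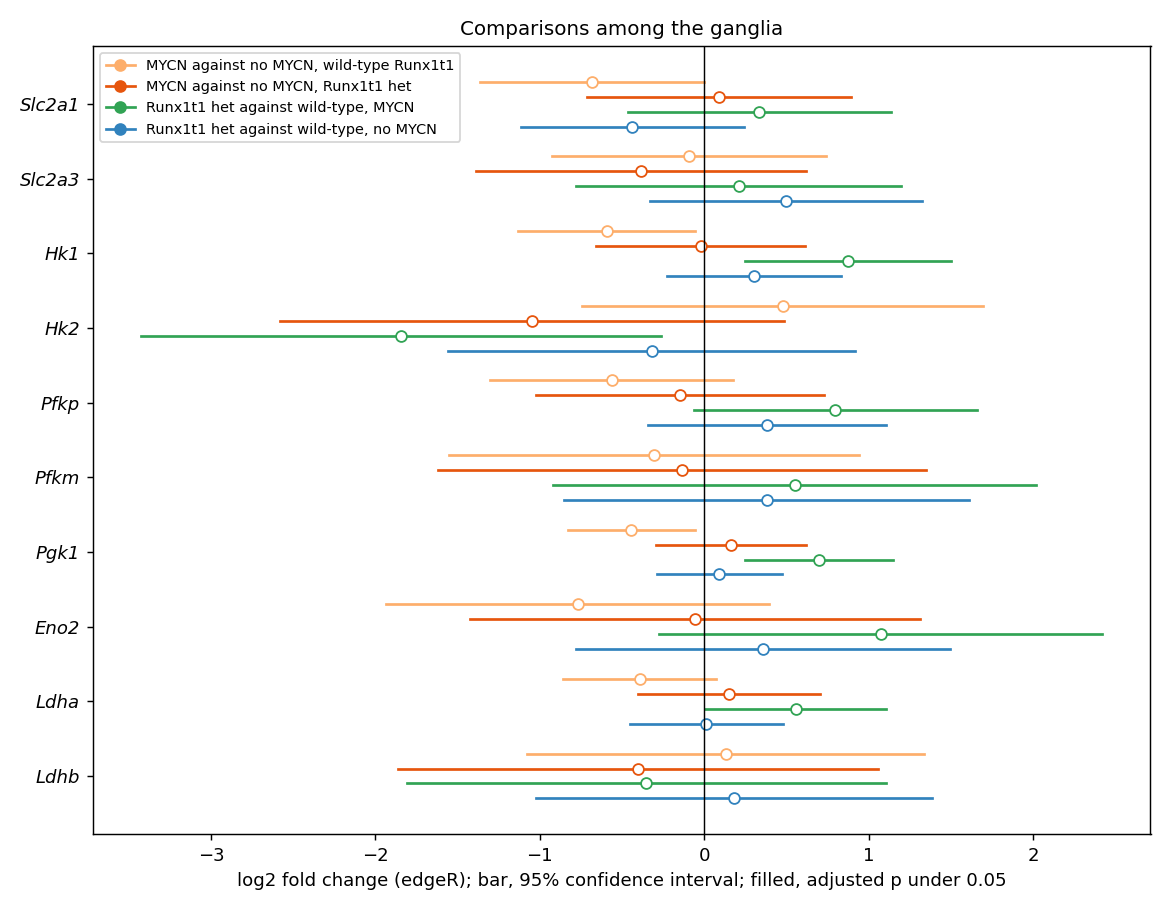
Log2 fold change of each of the 10 genes in the 4 comparisons among ganglia (points) with its 95% confidence interval (bars) from edgeR; open points did not pass the threshold of 0.05 on the adjusted p, and here all are open. For Runx1t1 het against wild-type in MYCN ganglia, the intervals of Hk1, Pgk1 and Ldha lie above 0 and that of Hk2 below 0 before adjustment for the number of genes.

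The other genes of glucose metabolism were read from 7 lists, in tumors against ganglia without MYCN. In this comparison 30.9% of all genes tested were lower and 30.6% higher. Of 20 tested other glycolytic enzymes, 6 were lower and 5 higher, with a median log2 fold change of −0.14 against −0.06 over all genes. The lower enzymes were Gpi1, Aldoa, Aldoc, Pgam1, Pgam2 and Eno1b, and the higher included Pfkl, Pkm and Pklr. Aldoc, the brain aldolase, was at 31.9 to 124 TPM in ganglia without MYCN and at 0.520 to 3.33 TPM in tumors, and its log2 fold change was −5.59 ± 0.62 (SE; adjusted p = 5.69e-06, edgeR). Pgam2, the muscle phosphoglycerate mutase, was at −2.74 ± 0.50 (adjusted p = 0.000296, edgeR). The 7 skeletal muscle markers summed to 22.9 to 285 TPM in ganglia without MYCN and to 5.28 to 21.3 TPM in tumors, where 3 of them were at 0 in replicate 1, and their part in the values of muscle forms such as Pgam2, Fbp2 and Pygm was not tested. Chosen after their values were seen, Gpi1, the isomerase between hexokinase and phosphofructokinase, was at −1.58 ± 0.21 (adjusted p = 2.65e-05, edgeR) and Aldoa at −1.55 ± 0.23 (4.98e-05), while Pkm, pyruvate kinase, was at 0.56 ± 0.15 (0.00425). Gapdh (−0.15 ± 0.17, adjusted p = 0.462, edgeR) and Tpi1 (−0.04 ± 0.16, 0.838) did not pass.

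Pklr, the liver and red cell pyruvate kinase, was chosen after its values were seen. It passed (3.28 ± 1.01, adjusted p = 0.0116, edgeR), with 13.6 TPM in tumor replicate 3 and 0.810 TPM or less in the other tumors. Alb was at 25.4, 4.44, 2497 and 0.610 TPM in the 4 tumors, highest in that same replicate 3.

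Of 11 other glucose transporters, 6 were lower and 1 higher (median −1.15). Slc2a13, a myo-inositol transporter, was at −3.70 ± 0.37 (adjusted p = 2.78e-06, edgeR), Slc2a6 at −3.51 ± 0.34 (2.17e-06) and Slc2a12 at −3.01 ± 0.38 (1.46e-05). Of 19 genes of lactate and pyruvate handling, 9 were lower and 1 higher (median −0.69), among them the pyruvate dehydrogenase kinases Pdk2 (−3.03 ± 0.43, adjusted p = 3.83e-05, edgeR) and Pdk4 (−3.54 ± 0.87, 0.00288) and the mitochondrial pyruvate carrier subunit Mpc1 (−1.50 ± 0.22, 5.75e-05). Of 16 genes of gluconeogenesis and glycogen, 8 were lower and 2 higher (median −1.27), with Pgm2l1 at −3.60 ± 0.30 (adjusted p = 8.65e-07, edgeR), the muscle bisphosphatase Fbp2 at −5.51 ± 1.04 (0.000399) and the muscle glycogen phosphorylase Pygm at −2.67 ± 0.52 (0.000474). Of 5 genes that set fructose 2,6-bisphosphate, Tigar alone passed (−1.58 ± 0.23, adjusted p = 5.28e-05, edgeR).

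Of 10 tested genes of the pentose phosphate pathway, which draws glucose 6-phosphate toward ribose and NADPH, 4 were higher and 2 lower (median 0.14). Rpia was at 1.78 ± 0.28 (adjusted p = 7.85e-05, edgeR), Pgls at 0.92 ± 0.17 (0.000299) and Prps2 at −1.92 ± 0.23 (8.96e-06). Of 15 hypoxia response genes outside the 10, 2 were higher and 5 lower (median −0.02). Over all genes, 30.6% were higher and 30.9% lower. The 2 higher genes are not reported by name here. Ndrg1 fell by 1.97 on the log2 scale (adjusted p = 3.72e-06, edgeR), Bnip3 by 1.71 (0.000147) and Ddit4 by 1.47 (8.05e-05).

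**Figure D5:**
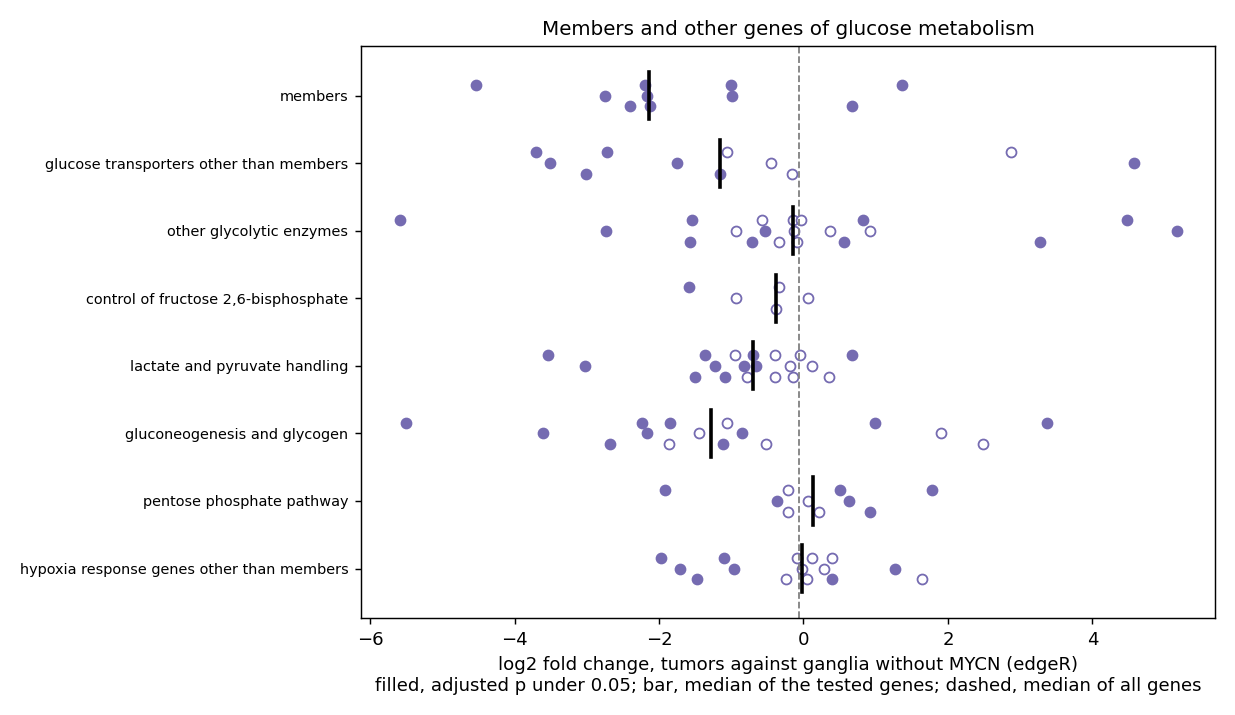
Log2 fold change in tumors against ganglia without MYCN of the 10 genes and of the tested genes of 7 other lists of glucose metabolism; filled points passed the threshold, bars mark each list's median and the dashed line the median of all genes. The 10 genes have the lowest median (−2.14), and the medians of the other glycolytic enzymes (−0.14) and hypoxia response genes (−0.02) lie near that of all genes (−0.06).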

How the data were processed

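RNA-Seq was made from 12 celiac ganglia and 4 tumors, and each library was placed in 1 of 5 groups by its title. Columns headed Hom for Runx1t1 were read as wild-type, as the matching labels give it. The cell type label reads neuroblastoma for the ganglia too, and the labels give polyA RNA where the methods describe total RNA libraries. The human MYCN transgene has no entry in the tables. The authors aligned paired reads to mm10 with STAR and ran SAMtools and RSEM, and deposited RSEM expected counts, not normalized, and TPM per gene. Strand use and annotation of the counting are not given in the sources used here. RSEM shares out reads of near copies, so values of Ldha, Pgk1, Gapdh and Eno1, which have pseudogenes, are uncertain, as are those of overlapping genes.

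Expected counts were rounded (6.05% of values were not whole). R 4.3.3 with edgeR 4.0.16 kept 16665 genes (filterByExpr by group), normalized by TMM and fitted all 5 groups in 1 quasi-likelihood model, since 1 group has 2 libraries, with 8 contrasts, Benjamini-Hochberg adjustment over all genes and a threshold of 0.05. Shares of isoforms are in TPM and were not tested. The 10 genes, the other gene lists, the markers and the tests were chosen with earlier results of these data known. In the tumor comparisons, other genes were named by a rule: of the genes past the threshold whose groups did not overlap in CPM and whose TPM averaged 1 or more, at most 3 of each list, those that changed most. Some genes of these lists are counted but not reported by name here. Gene positions are from GENCODE vM21 and promoters from RefSeq. Alternatives were DESeq2 1.42.0 and its size factors, upper-quartile normalization, no filter or at least 10 counts in every library, a replicate block, only the compared groups, a term for depth (under or over 20000000 counts), leaving out the ribosomal RNA gene Rn45s, limma 3.58.1 on log2(TPM + 1) or log2(TPM + 0.1), CPM in place of TPM for shares, and leaving out each library. The scripts were tested on simulated data, and no 2 libraries of a group agreed within sampling noise.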

Additional observations from a re-analysis of the deposited data

Results flagged for a closer look

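In groups of 4 libraries, the highest and lowest value was set against Dixon's 95% critical value, which chance passes in about 1 of 20 groups. Of 34 tests on the 10 genes and their shares, 4 passed, and all 4 were values of tumor replicate 1. Its Eno2 level was 28.0 TPM, where the nearest of the other tumors had 6.12 TPM. Its share of Ldha in Ldha and Ldhb was 82.0%, with the nearest tumor at 95.7%. Its share of Pfkm in the 3 phosphofructokinases was 1.90%, with the nearest at 24.3%. Its share of Eno2 in the 3 enolases was 4.89%, with the nearest at 1.54%. Its sympathetic neuron markers summed to 4853 TPM, against 2760 to 3125 TPM in the other tumors. Without this library, all 10 genes still passed the threshold against ganglia without MYCN.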

How the results depend on the processing

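Precision was limited by the 2 to 4 libraries per group. No called value changed sign, and the count of the 10 genes past the threshold stayed within 1.5 times its value except as follows. Against Runx1t1 wild-type MYCN ganglia it was 5 rather than 8 with only the compared groups in the fit. With 1 library left out it was 9 to 10 against ganglia without MYCN, 6 to 8 against Runx1t1 wild-type MYCN ganglia and 5 to 9 against those labelled het (5 without replicate 1 of the latter). The other glycolytic enzymes numbered 7 rather than 11 against ganglia without MYCN with at least 10 counts in every library, which leaves fewer genes to test. With 1 library left out they numbered 10 to 12 against ganglia without MYCN, 4 to 8 against Runx1t1 wild-type MYCN ganglia (4 without replicate 3) and 6 to 8 against those labelled het. Libraries of the same replicate number correlated from -0.315 to 0.319 in their deviations from the group means (25 pairs, median -0.0143). The median of the 76 other pairs was -0.0213. Depth nonetheless followed the number among the ganglia. Replicates 1 and 2 held 10692291 to 14221947 counts, and replicates 3 and 4 held 24873942 to 36337179. Whether libraries of the same number were handled together is not given and was not tested. With a replicate block the 10 genes passed in number 10, 6 and 9 in the 3 tumor comparisons, against 10, 8 and 8 without it. Against Runx1t1 wild-type MYCN ganglia, Pfkm (adjusted p = 0.0704, edgeR) and Pgk1 (0.0844) did not pass with the block. On log2(TPM + 1), limma called 3238 genes higher and 7022 lower in tumors than in ganglia without MYCN, where edgeR called 5095 and 5145. Against Runx1t1 wild-type MYCN ganglia the counts were 1206 and 4997 against 2340 and 3415, and against those labelled het 2230 and 5756 against 3668 and 3914. The median of all genes was -0.35, -0.29 and -0.32 on that scale. Over all genes, MYCN against no MYCN with wild-type Runx1t1 gave 156 calls in edgeR, 1285 in DESeq2, 16 in limma, 0 with the replicate block or only the compared groups, and 0 to 1811 with 1 library left out. Runx1t1 het against wild-type in MYCN ganglia gave 2 in edgeR, 264 in DESeq2, 0 with a term for depth and 0 to 320 with 1 library left out. With CPM in place of TPM, the mean share of Slc2a3 among the transporters in tumors was higher by more than its SD. The causes were not tested.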
